A study of Mus musculus with 20 samples.

Results

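The genes described here encode solute carriers that move sugars and amino acids across cell membranes, measured in 4 microvascular compartments and in whole kidney of healthy mice. The members were all genes of the count table whose symbol begins with Slc1a, Slc2a, Slc3a, Slc5a, Slc6a, Slc7a, Slc36a, Slc38a or Slc43a followed by a number, without symbols that contain "-ps" or "-os". The rule found 91 of the 34255 genes in the table. Of these, 88 are carriers or their heavy chains, and 3 (Slc6a19os, Slc7a6os and Slc36a3os) are genes named for the opposite strand of a carrier gene, kept because their symbols have no hyphen. Slc7a6os is annotated as a protein-coding gene beside Slc7a6 and does not overlap it. The carriers comprised 7 Slc1a, 12 Slc2a, 2 Slc3a, 13 Slc5a, 21 Slc6a, 15 Slc7a, 4 Slc36a, 11 Slc38a and 3 Slc43a genes.

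The study asked which mRNAs mark each type of small vessel in the renal cortex. Post-capillary venules, peritubular capillaries, glomeruli and arterioles were cut by laser microdissection from kidney cryosections of WT C57BL6/OlaHsd male mice aged 8 to 12 weeks, with 4 samples per group and no treatment. For each mouse, arterioles, glomeruli and venules were collected from a slide stained with hematoxylin, and peritubular capillaries from a separate slide stained for endothelium. Libraries of different compartments can therefore share a mouse. Undissected kidney sections, also 4 samples, were the reference. Whole kidney libraries started from a set amount of RNA and had fewer PCR cycles than the microdissected ones. Preparation and tissue therefore cannot be told apart in comparisons with whole kidney. Slide and stain likewise cannot be told apart from compartment in any comparison that includes peritubular capillaries, among them all marker comparisons. Venule and glomerular samples were also cut to a larger area than the other microdissected samples. The part of the dissected area in the results was not tested. The labels call the samples biological replicates without naming a mouse for each. The main tests therefore left any pairing by mouse out, and p-values measure only the spread between these samples. All values are CPM (read counts scaled to a common library size), with library sizes adjusted by the trimmed mean of M values (TMM). Each transcript was read near its 3′ end, so levels were not divided by gene length. The libraries of a group carry the numbers 93, 96, 98 and 100, and lists of 4 values follow that order.

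As background, sugars and amino acids are filtered freely in the glomerulus and are taken back almost completely by the proximal tubule. Sodium-coupled carriers in the luminal brush border draw them into the cell, and facilitative carriers and exchangers in the basolateral membrane release them toward the peritubular capillaries. Outside the tubule, other members of the same families supply cells with glucose, glutamine, taurine or creatine for their own use.

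The 20 libraries held between 4639090 and 12283098 counts. The compartments were checked against cell type markers. A list of 7 smooth muscle genes made up 1.58% to 2.66% of the counts in arterioles and at most 0.211% elsewhere, and a list of 6 podocyte genes 0.88% to 1.05% in glomeruli and at most 0.157% elsewhere. A list of 10 endothelial genes made up 0.254% to 0.335% in arterioles, 0.389% to 0.498% in glomeruli, 0.0457% to 0.105% in peritubular capillaries, 0.0674% to 0.125% in venules and 0.0508% to 0.0597% in whole kidney, so peritubular capillaries and whole kidney overlapped. A list of 12 proximal tubule genes that are no members, among them Slc34a1, Lrp2 and Kap, took 0.57% to 1.45% in arterioles, 0.745% to 1.1% in glomeruli, 6.61% to 8.7% in peritubular capillaries, 2.51% to 3.04% in venules and 4.29% to 4.7% in whole kidney. No marker of any list was at 0 in a whole group. The proximal tubule share moved with most of the results on tubular carriers, and its part in them was not tested.

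**Figure D1:**
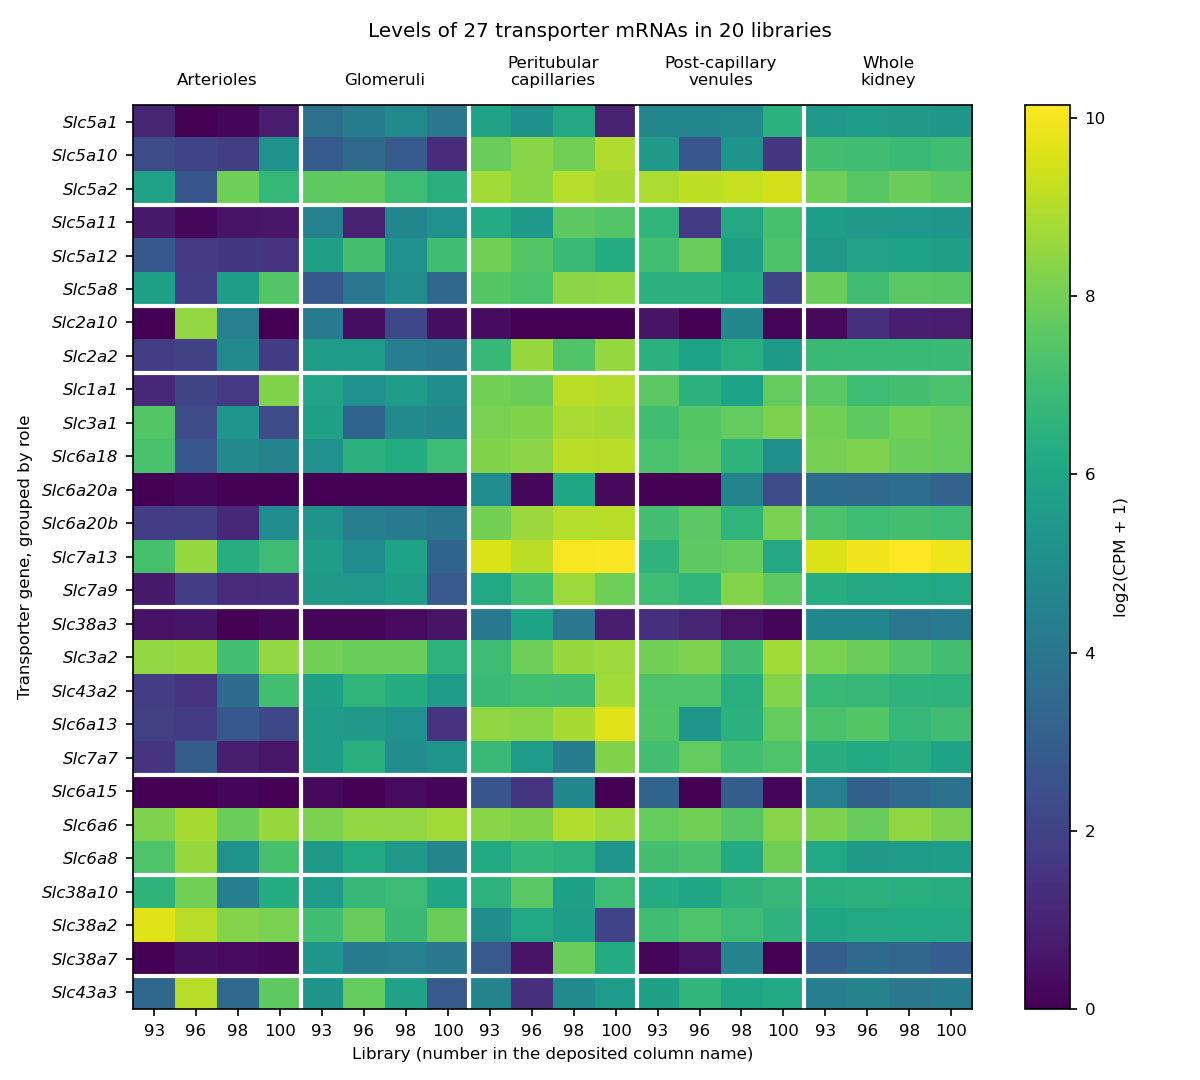
Levels of 27 transporter mRNAs on the log2(CPM + 1) scale, with 1 column for each of the 20 libraries in 5 groups and 1 row for each gene, ordered by role. Most tubular carriers were darker in arterioles and brighter in peritubular capillaries, whereas Slc38a2 was brightest in arterioles.

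Of the 91 members, 58 passed the filter on low counts in the fit of all 20 libraries and 52 in the fit of the 16 microdissected libraries. A total of 11 had 0 counts in every library: Slc5a4a, Slc5a7, Slc6a5, Slc6a11, Slc6a16, Slc7a10, Slc7a15, Slc36a3, Slc36a3os, Slc38a5 and Slc38a8. With these, 29 were under 1 CPM in every group mean, the others including Slc1a6, Slc1a7, Slc2a6, Slc2a7, Slc5a4b, Slc6a2, Slc6a3, Slc6a7, Slc6a14, Slc6a19os, Slc6a21, Slc7a3, Slc7a5, Slc7a11, Slc7a12, Slc7a14 and Slc43a1. Slc5a5, Slc6a12, Slc36a2 and Slc38a11 were also left out by the filter. A mean of at least 10 CPM was reached by 33 members in arterioles, 38 in glomeruli, 44 in peritubular capillaries, 36 in venules and 41 in whole kidney. At least 10 CPM in all 4 libraries was reached by 7, 20, 23, 23 and 37 members in the same order.

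The microdissected libraries spread widely. Among the 41 members with a mean of at least 10 CPM in whole kidney, the median coefficient of variation was 14.8% in whole kidney, 60.2% in glomeruli, 61.4% in venules, 69.6% in peritubular capillaries and 110% in arterioles. Values under 1 CPM made up 26.8% of the 164 arteriole values of these members, 15.2% in glomeruli, 10.4% in peritubular capillaries, 10.98% in venules and 0 of 164 in whole kidney. Many members were thus near 0 in some libraries and well detected in others of the same group. The 41 members were chosen by their whole kidney level, which favours few low values and low spread there. Members low in whole kidney but high in some arteriole libraries, such as Slc2a10 and Slc7a2, are not among them.

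Summed over all members, transporter transcripts reached 7072 ± 2046 CPM (SD, n = 4) in peritubular capillaries, 4310 ± 205 in whole kidney, 4115 ± 588 in venules, 3093 ± 849 in arterioles and 2131 ± 337 in glomeruli. Venules overlapped whole kidney and arterioles in this sum. The luminal amino acid carriers took the largest part in peritubular capillaries, with 2869 ± 958 CPM, against 1914 ± 137 in whole kidney and 280 ± 44.5 in glomeruli. The sodium-coupled sugar carriers summed to 814 ± 130 CPM in peritubular capillaries, 679 ± 98.6 in venules, 398 ± 29.6 in whole kidney, 179 ± 61.2 in glomeruli and 114 ± 101 in arterioles. The sodium-coupled neutral amino acid transporters (SNAT, Slc38a without Slc38a3) had another order, with 674 ± 365 CPM in arterioles and 201 ± 8.6 in whole kidney.

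**Figure D2:**
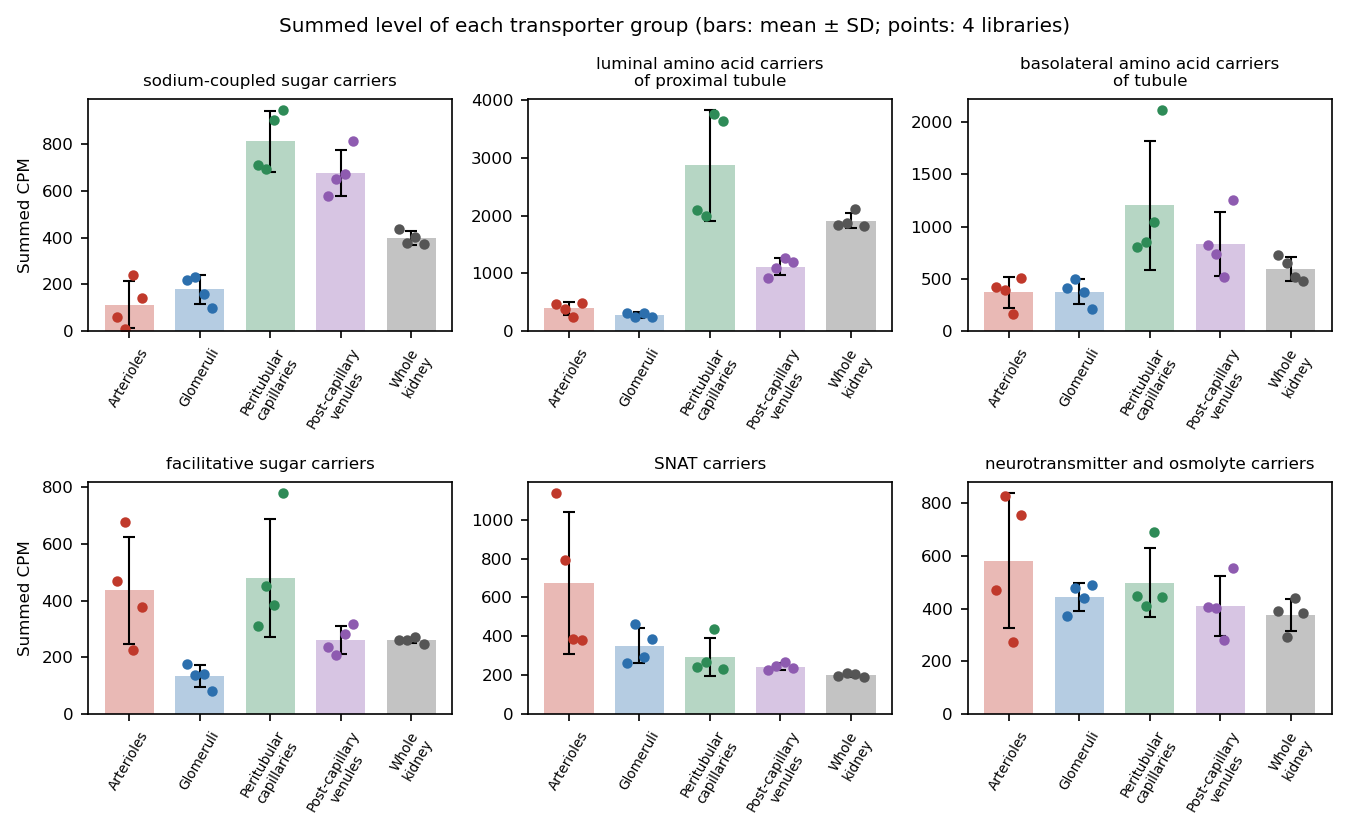
Summed CPM of 6 groups of transporters by compartment, with bars for the mean, error bars for the SD and points for the 4 libraries. Luminal amino acid carriers stood at 1993 to 3749 CPM in peritubular capillaries and 237 to 482 in arterioles, and SNAT carriers at 381 to 1139 in arterioles and 192 to 210 in whole kidney.

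In arterioles against whole kidney, 2 members were higher (Slc38a2 and Slc43a3) and 13 were lower: Slc2a2, Slc5a1, Slc5a10, Slc5a11, Slc5a12, Slc6a13, Slc6a15, Slc6a18, Slc6a20b, Slc7a7, Slc7a9, Slc7a13 and Slc38a3. A call required a false discovery rate (FDR) under 0.05 over all 13813 genes tested by edgeR's quasi-likelihood F test, and a log2 fold change past 1. The lower calls were 22.4% of the 58 members tested, where 5.5% of all genes tested were lower, and the higher calls were 3.45%, where 5.78% of all genes were higher. The median log2 fold change was -1.59 over the members tested and 0.22 over all genes tested. With DESeq2's size factors the latter shifted by 0.17 to 0.39, and the members called became 4 higher and 13 lower. The 2 higher calls became 1 without arteriole library 96 or any 1 whole kidney library and 4 without arteriole library 98.

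In glomeruli against whole kidney, 6 members were lower (Slc3a1, Slc5a8, Slc5a10, Slc6a20a, Slc6a20b and Slc7a13) and 0 were higher. Of all genes tested, 1.47% were lower and 1.59% were higher. At an unadjusted p under 0.05, 1 member was higher, and DESeq2 called 0 higher. The median log2 fold change was -0.55 over the members tested and 0.26 over all genes. The lower calls fell to 2 without glomerular library 100 or whole kidney library 93 and to 3 without glomerular library 96 or 98 or whole kidney library 98. Fitted with only the 8 libraries compared, glomeruli had 1 member higher and 17 lower.

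In peritubular capillaries against whole kidney, edgeR called 0 members in either direction, with 4 higher and 4 lower at an unadjusted p under 0.05, and DESeq2 also called 0. When edgeR fitted only the 8 libraries compared, 5 were called higher and 1 lower, so the 0 depends on the fit. Calls were rare over all genes, with 0.0869% higher and 0.00724% lower. The members' median log2 fold change was 0.58, against 0.18 over all genes. In venules against whole kidney, 0 members were higher by edgeR (2 at an unadjusted p under 0.05, and 0 by DESeq2) and 1, Slc7a13, was lower, where 0.203% of all genes were higher and 0.0217% lower. Fitted with only the 8 libraries compared, venules had 6 members higher and 4 lower. The 4 comparisons share the whole kidney libraries.

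**Figure D3:**
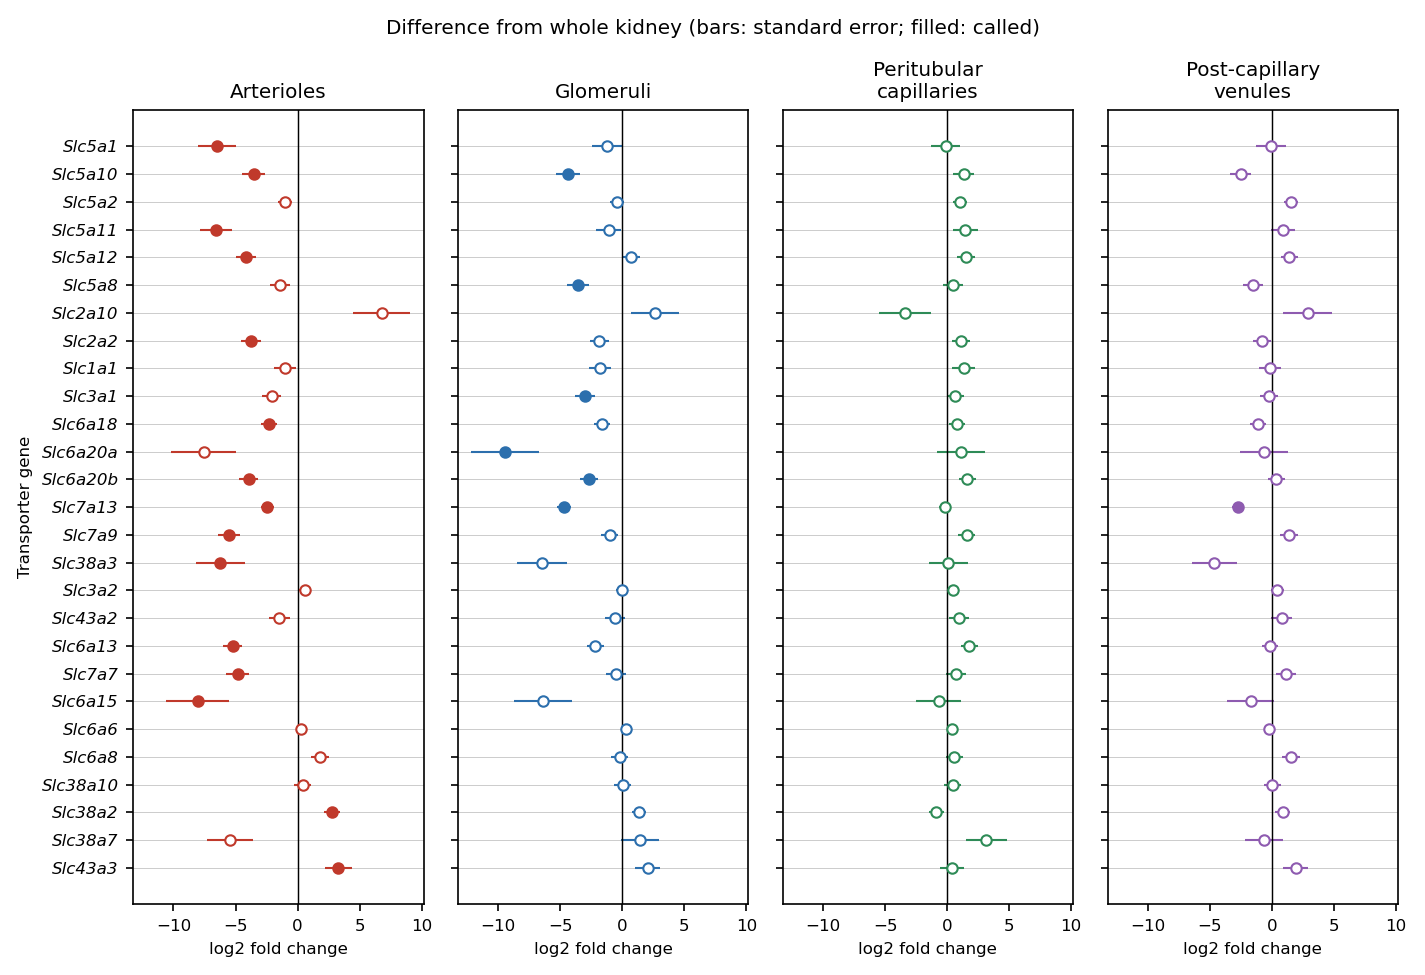
Log2 fold change of 27 transporter mRNAs against whole kidney in each compartment, with bars for the standard error and filled points for genes called at an FDR under 0.05 and past 1. Filled points lay left of 0 for 13 members in arterioles, 6 in glomeruli and 1 in venules, and right of 0 for Slc38a2 and Slc43a3 in arterioles.

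Among the 16 microdissected libraries, 12179 genes were tested. Arterioles and peritubular capillaries differed in 16 members (2 higher in arterioles, 14 lower), where 6.22% of all genes were higher and 4.96% lower (11.2% in all). Arterioles and venules differed in 8, all lower in arterioles, where 1.86% of all genes were lower (4.37% in either direction). Glomeruli and peritubular capillaries differed in 8 (1 higher in glomeruli, 7 lower), where 2.2% of all genes were higher and 2.27% lower (4.47% in all), and in 5 without glomerular library 93, 96 or 100 or peritubular capillary library 98. Arterioles and glomeruli differed in 6, of which Slc7a13 was higher in arterioles, where 1.31% of all genes were higher and 0.862% lower (2.18% in all), in 3 without arteriole library 96 or glomerular library 96 or 98, and in 0 when only these 8 libraries were fitted. Peritubular capillaries and venules differed in 1, Slc7a13, higher in peritubular capillaries, where 0.0739% of all genes were higher and 0.312% lower (0.386% in all), a call lost whenever any 1 of the 8 libraries was left out (FDR up to 0.169). Between glomeruli and venules edgeR called 0 members, where 0.493% of all genes were higher and 0.731% lower (1.22% in all), with 10 lower in glomeruli at an unadjusted p under 0.05, and DESeq2 called 5.

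A marker of a compartment was a gene higher than the mean of the other 3 compartments at an FDR under 0.05, with at least 10 CPM in all 4 libraries. That mean was taken on the log scale, so a compartment near 0 lowers it. Peritubular capillaries had 12 such members (Slc1a1, Slc2a2, Slc3a1, Slc5a8, Slc5a10, Slc5a11, Slc5a12, Slc6a13, Slc6a18, Slc6a20b, Slc7a9 and Slc7a13), 23.1% of the 52 tested, where 3.24% of all genes were markers. Of these 12, only Slc7a13 was also called higher than in venules alone. Arterioles had 1, Slc38a2, where 4.76% of all genes were markers. Venules had 1, Slc7a9, where 0.23% were markers; this became 0 without venule library 98, 2 without peritubular capillary library 100 and 3 without arteriole library 96, 98 or 100. Glomeruli had 0 by edgeR, where 1.48% were markers, with 1 at an unadjusted p under 0.05 and 0 by DESeq2, and 1 without venule library 98.

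Promoter sequences of the mouse build GRCm38.p6 were taken from RefSeq for 68 of the 91 members. The sequences printed are those of Slc5a10, Slc6a13, Slc7a7 and Slc3a1, low in arterioles or glomeruli, and of Slc38a2, high in arterioles. The 250 bases before each RefSeq start were searched on both strands for GTTAAT, a half-site of hepatocyte nuclear factor 1, and for CAAAGTCCA, a site of hepatocyte nuclear factor 4, both factors of proximal tubule transcription. GTTAAT or its reverse complement lay in 7 of the 68 members (10.3%), namely Slc5a10, Slc6a13, Slc6a16, Slc6a20a, Slc7a7, Slc7a15 and Slc36a1, and in 7.49% of the 27025 genes with a promoter. CAAAGTCCA or its reverse complement lay in 1 member, Slc3a1 (1.47%), and in 0.451% of all genes. Of the 15 members with a promoter that were called in any comparison, 4 held the first motif and 1 the second, so most held neither. The low members whose sequences are printed all hold a match and do not represent the called members. The motifs share no overlapping match in the windows shown, and capitals mark the match. The windows are chr11:61720827-61721049 (minus strand) for Slc5a10, chr6:121300490-121300739 (plus) for Slc6a13, chr14:54409473-54409722 (minus) for Slc7a7, chr17:85028097-85028346 (plus) for Slc3a1 and chr15:96699731-96699978 (minus) for Slc38a2. Those of Slc6a13 and Slc7a7 precede a start that lies inside the annotated span of the gene. The sequences read 5′ to 3′:
Slc5a10: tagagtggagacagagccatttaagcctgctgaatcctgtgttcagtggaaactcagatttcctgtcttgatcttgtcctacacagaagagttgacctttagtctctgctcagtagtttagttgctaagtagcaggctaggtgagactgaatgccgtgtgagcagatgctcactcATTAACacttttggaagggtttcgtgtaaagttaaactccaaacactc
Slc6a13: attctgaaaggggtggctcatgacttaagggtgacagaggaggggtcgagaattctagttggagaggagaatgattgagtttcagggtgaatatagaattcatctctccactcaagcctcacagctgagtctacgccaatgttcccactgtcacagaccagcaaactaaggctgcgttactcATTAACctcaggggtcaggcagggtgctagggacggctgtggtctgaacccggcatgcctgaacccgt
Slc7a7: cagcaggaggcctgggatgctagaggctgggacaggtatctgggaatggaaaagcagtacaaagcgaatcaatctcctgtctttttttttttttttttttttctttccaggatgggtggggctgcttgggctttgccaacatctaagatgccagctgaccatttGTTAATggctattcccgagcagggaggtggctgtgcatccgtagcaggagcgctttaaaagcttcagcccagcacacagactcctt
Slc3a1: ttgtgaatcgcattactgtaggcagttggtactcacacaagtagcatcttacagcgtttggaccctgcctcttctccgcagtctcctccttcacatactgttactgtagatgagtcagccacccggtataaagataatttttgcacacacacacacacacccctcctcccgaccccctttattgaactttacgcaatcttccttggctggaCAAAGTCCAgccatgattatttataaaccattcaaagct
Slc38a2: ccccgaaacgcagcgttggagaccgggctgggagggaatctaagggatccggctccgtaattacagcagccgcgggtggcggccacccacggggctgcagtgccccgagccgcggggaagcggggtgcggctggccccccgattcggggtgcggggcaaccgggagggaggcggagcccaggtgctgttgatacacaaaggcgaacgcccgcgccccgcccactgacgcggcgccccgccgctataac
The match began 75 bases before the RefSeq start in Slc5a10, 68 in Slc6a13, 86 in Slc7a7 and 39 in Slc3a1, and Slc38a2 held neither motif in the 250 bases searched. The sequences of Slc5a10 (223 bases) and Slc38a2 (248 bases) are printed only up to the base where the GENCODE annotation begins the gene, which lies before the RefSeq start, so the distance for Slc5a10 runs past the end of the printed sequence. Lack of both motifs does not set Slc38a2 apart, since most called members with a promoter also held neither. A match describes these letters only.

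Among the sodium-coupled sugar carriers, 2 of the 4 tested (Slc5a1 and Slc5a10) were lower in arterioles than in whole kidney (5.5% of all genes), 1 (Slc5a10) was lower in glomeruli (1.47% of all genes), and Slc5a2 had its highest values in venules. Slc5a2 (SGLT2, which takes back most filtered glucose in the early proximal tubule) stood at 480, 576, 609 and 723 CPM in venules, 430, 322, 523 and 450 in peritubular capillaries and 240, 181, 223 and 191 in whole kidney. Glomeruli had 198, 204, 126 and 81.8, and arterioles 56.9, 5.47, 238 and 108. All venule and peritubular capillary libraries lay above all whole kidney libraries, yet the log2 fold changes of 1.51 (SE 0.57, FDR 0.33) and 1.04 (SE 0.56, FDR 0.465) did not pass the test. Arterioles were lower than venules with a log2 fold change of -2.55 (SE 0.65, FDR 0.0154) and than peritubular capillaries with a log2 fold change of -2.08 (SE 0.63, FDR 0.0289). The second call was lost without arteriole library 93, or peritubular capillary library 98 or 100 (FDR up to 0.0694), and both were lost when only the 8 libraries compared were fitted (FDR 0.0693 and 0.15).

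Slc5a10 (SGLT5, a mannose and fructose carrier of the renal cortex) was high in peritubular capillaries and whole kidney. It stood at 223, 325, 252 and 495 CPM in peritubular capillaries and at 137, 128, 119 and 129 in whole kidney. Glomeruli had 6.81, 10.3, 6.31 and 1.43, arterioles 4.05, 3.06, 2.7 and 34.6 and venules 43.7, 5.83, 37.4 and 2.01. No library of these 3 groups reached the lowest whole kidney library. Against whole kidney the log2 fold change was -4.37 (SE 0.95, FDR 0.00482) in glomeruli and -3.53 (SE 0.92, FDR 0.0102) in arterioles, and both calls held without any 1 library, while that of venules was -2.53 (SE 0.88, FDR 0.293). As a marker of peritubular capillaries it had 4.81 (SE 0.72, FDR 1.44e-05), the largest log2 fold change of the 12 markers. Slc5a10 overlaps Grap and Fam83g on the opposite strand, and the sources used here do not give the strand setting of the counting. Other named members also overlap a gene on the opposite strand, among them Slc5a2 (BC017158), Slc7a7 (Oxa1l), Slc6a20b (Sacm1l) and Slc2a2 (1700112D23Rik). Overlaps on the same strand include those of Slc5a1 (Gm15936) and Slc5a3 (Mrps6).

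Slc5a1 (SGLT1, the high-affinity glucose carrier of the later proximal tubule) had 10 counts over the 4 arteriole libraries against 1879 in whole kidney. Its CPM were 1.07, 0, 0.112 and 0.714 in arterioles and 41.3, 47, 43.2 and 40.8 in whole kidney, which did not overlap. The log2 fold change was -6.51 (SE 1.54, FDR 0.00453), and the exact 95% Poisson interval of the pooled arteriole level, 0.146 to 0.560 CPM, covers counting error only. In peritubular capillaries its values were 56.4, 33.3, 67.7 and 0.978, the last within the range of arterioles. Slc5a9, a mannose carrier, was the other tested member of this role and was not called.

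**Figure D4:**
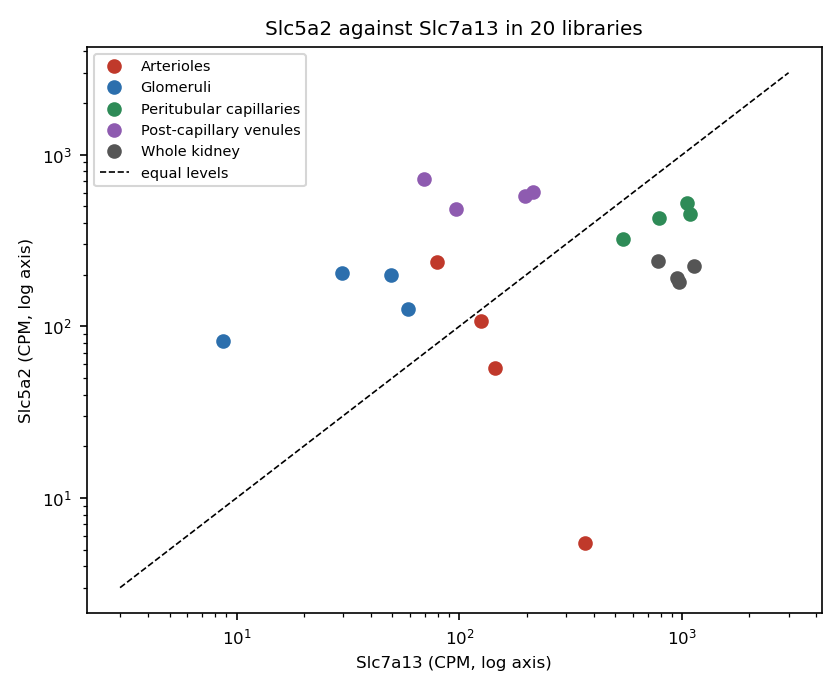
Level of Slc5a2 against that of Slc7a13 in each of the 20 libraries, both in CPM on log axes, with a dashed line at equal levels. All glomerular and venule libraries lay on the side where Slc5a2 was higher, and all peritubular capillary and whole kidney libraries on the side where Slc7a13 was higher.

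Slc7a13 (AGT1, an aspartate, glutamate and cystine carrier of the late proximal tubule) had another order among the compartments than Slc5a2. It stood at 787, 545, 1047 and 1081 CPM in peritubular capillaries and at 782, 970, 1130 and 944 in whole kidney. Venules had 96.9, 197, 213 and 69.5, arterioles 144, 366, 79.6 and 124 and glomeruli 49.3, 29.8, 58.5 and 8.71. Peritubular capillaries and whole kidney overlapped, with a log2 fold change of -0.14 (SE 0.48, FDR 0.968), and every library of the other 3 groups lay below both. Against whole kidney the log2 fold change was -4.71 (SE 0.57, FDR 3.97e-07) in glomeruli, -2.73 (SE 0.52, FDR 0.0048) in venules and -2.42 (SE 0.51, FDR 0.00134) in arterioles, and these 3 calls held without any 1 library and under the other settings tried. In a ratio chosen after the values were seen, the counts of Slc5a2 over those of Slc7a13 were 2.85 to 10.4 in venules and 2.16 to 9.39 in glomeruli, whereas peritubular capillaries had 0.416 to 0.591 and whole kidney 0.187 to 0.308. Arterioles spanned 0.015 to 2.99.

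Of the 8 luminal amino acid carriers tested, 4 were lower in arterioles than in whole kidney (Slc6a18, Slc6a20b, Slc7a9 and Slc7a13) and 4 in glomeruli (Slc3a1, Slc6a20a, Slc6a20b and Slc7a13), where 5.5% and 1.47% of all genes were lower. Slc6a18 (a neutral amino acid carrier of the brush border) stood at 297, 331, 552 and 524 CPM in peritubular capillaries, 270, 291, 227 and 211 in whole kidney and 148, 5.8, 26.5 and 22.1 in arterioles. Venules had 154, 180, 92.6 and 33.4 and glomeruli 33.8, 87.5, 77.5 and 123. The arterioles lay below all whole kidney libraries, with -2.30 (SE 0.68, FDR 0.0248), a call lost without arteriole library 96, 98 or 100, or whole kidney library 93 or 96 (FDR up to 0.0637) and with only the 8 libraries compared (FDR 0.0671). As a marker of peritubular capillaries it had 2.45 (SE 0.55, FDR 0.00321), which held without any 1 library.

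Slc7a9 (the light chain of the cystine and dibasic amino acid exchanger) and Slc3a1 (its heavy chain, rBAT) form a heterodimer in the brush border. Slc7a9 stood at 0.639, 2.58, 1.35 and 1.43 CPM in arterioles, with 39 counts in all, and at 78.8, 68.3, 70.4 and 64.6 in whole kidney. It reached 126, 103, 305 and 196 in venules and 65.4, 133, 399 and 239 in peritubular capillaries, with 42.9, 42, 48.5 and 6.07 in glomeruli. Arterioles lay below every other library, with -5.54 (SE 0.86, FDR 2.03e-05) against whole kidney and -4.52 (SE 0.93, FDR 0.0027) against glomeruli, the second lost when only the 8 libraries compared were fitted (FDR 0.187). Slc7a9 was a marker of peritubular capillaries, with 3.29 (SE 0.59, FDR 0.000219), and of venules, with 3.04 (SE 0.59, FDR 0.00687), the second lost without venule library 98 (FDR up to 0.0726). Slc3a1 stood at 169, 4.02, 39.5 and 3.93 CPM in arterioles, 55.3, 8.73, 27 and 23.9 in glomeruli, 252, 199, 252 and 221 in whole kidney and 273, 295, 466 and 441 in peritubular capillaries. It was lower in glomeruli than in whole kidney with a log2 fold change of -3.01 (SE 0.77, FDR 0.0199), a call lost without glomerular library 96, 98 or 100, or whole kidney library 93 or 98 (FDR up to 0.079). Slc3a1 overlaps Prepl on the opposite strand.

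Slc6a20a and Slc6a20b, neighboring paralogs on chromosome 9 that carry proline and related amino acids, were low in glomeruli and arterioles. Slc6a20b stood at 261, 389, 510 and 531 CPM in peritubular capillaries, 137, 191, 99.9 and 273 in venules and 154, 128, 143 and 126 in whole kidney. Glomeruli had 34.9, 19.2, 16.6 and 14.3, and arterioles 2.56, 2.74, 1.24 and 29.4. All glomerular and arteriole libraries lay below all others, with -3.94 (SE 0.76, FDR 0.000442) against whole kidney in arterioles and -2.69 (SE 0.71, FDR 0.0253) in glomeruli, the latter lost without glomerular library 96, 98 or 100, or whole kidney library 93, 96, 98 or 100 (FDR up to 0.0876). Slc6a20a had 0 counts in glomeruli, 1 in arterioles and 461 in whole kidney, where it stood at 11, 10.4, 11.9 and 8.41 CPM. Against a floor of 3 counts over the group, it was at least 134-fold lower in glomeruli than in whole kidney (edgeR FDR 0.0463), a call lost whenever any 1 of the 8 libraries was left out (FDR up to 0.119). In peritubular capillaries it stood at 29.5, 0.147, 63.3 and 0.196, so detected and nearly undetected libraries lay side by side. Reads that both paralogs share could be split between them, so the values of the pair are uncertain.

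Slc1a1 (EAAC1, the glutamate and aspartate carrier of the brush border) stood at 1.28, 3.38, 2.25 and 298 CPM in arterioles, the last value above every whole kidney library (126 to 184). It was a marker of peritubular capillaries, at 251, 229, 546 and 496 CPM, with 2.30 (SE 0.71, FDR 0.0408), a call lost without glomerular library 96, 98 or 100, or peritubular capillary library 93, 98 or 100, or venule library 96 or 98 (FDR up to 0.133). Slc6a19 (B0AT1, a main neutral amino acid carrier of the brush border), named here after its values were seen, stood at 104, 82.5, 131 and 83.4 in whole kidney and at 1.71, 2.58, 86.6 and 2.86 in arterioles. Its log2 fold change of -2.09 (SE 0.89, FDR 0.0967) did not pass the test. Cltrn (collectrin), an accessory protein that Slc6a carriers of the brush border need to reach the membrane, was called lower than whole kidney in arterioles and glomeruli, at 279 ± 199 and 235 ± 50.1 CPM respectively, whole kidney being at 851 ± 143 (SD, n = 4).

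Of the 6 basolateral amino acid carriers, 3 were lower in arterioles than in whole kidney (Slc6a13, Slc7a7 and Slc38a3), where 5.5% of all genes were lower. Slc6a13 (GAT2, a GABA, betaine and taurine carrier) stood at 2.77, 2.41, 5.96 and 3.57 CPM in arterioles and at 148, 175, 108 and 129 in whole kidney. It reached 353, 326, 453 and 814 in peritubular capillaries, with 168, 39.6, 89.3 and 216 in venules and 46.6, 42.3, 33.8 and 1.88 in glomeruli. The peritubular capillary libraries all lay above all others. Slc6a13 was lower in arterioles with a log2 fold change of -5.24 (SE 0.78, FDR 8.53e-06) against whole kidney and with a log2 fold change of -7.03 (SE 0.95, FDR 1.52e-06) against peritubular capillaries, and was a marker of the latter with 4.30 (SE 0.55, FDR 7.38e-07), calls that held without any 1 library. Against glomeruli the arterioles had -3.07 (SE 0.79, FDR 0.0259), with glomerular library 100 below all arterioles, a call lost without arteriole library 93 or 96, or glomerular library 93, 96 or 98 (FDR up to 0.0893) and with only the 8 libraries compared (FDR 0.459).

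Slc7a7 (y+LAT1, which exports dibasic amino acids) stood at 1.92, 6.92, 0.787 and 0.535 CPM in arterioles and at 80.00, 72.1, 79 and 58.8 in whole kidney, a log2 fold change of -4.83 (SE 0.95, FDR 0.000599). Its venule values of 136, 210, 133 and 164 all lay above whole kidney without passing the test, with 1.15 (SE 0.81, FDR 0.866). Its partner Slc3a2 (4F2hc, the heavy chain of several exchangers) stood at 363, 380, 134 and 365 in arterioles and 276, 227, 169 and 139 in whole kidney. The groups of Slc3a2 overlapped, and its log2 fold changes against whole kidney ran from -0.02 (SE 0.50) in glomeruli to 0.61 (SE 0.50) in arterioles. Slc43a2 (LAT4, a neutral amino acid exporter) had 2.56, 1.93, 11 and 135 in arterioles and 117, 108, 95.8 and 93.4 in whole kidney, with -1.46 (SE 0.83, FDR 0.214).

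Slc38a3 (SNAT3, which takes up glutamine across the basolateral membrane) had 6 counts in arterioles, 9 in glomeruli and 871 in whole kidney. Its CPM were 25.9, 25.8, 14.6 and 16.8 in whole kidney, 15.7, 58.1, 15.2 and 0.782 in peritubular capillaries and at most 0.483 in arterioles, 0.441 in glomeruli and 1.68 in venules. The arteriole difference of -6.21 (SE 2.00, FDR 0.0394) was lost whenever any 1 of the 8 libraries was left out (FDR up to 0.0852), and that of glomeruli, -6.46 (SE 2.01, FDR 0.0697), did not pass. The arterioles did not overlap whole kidney, but few counts stand behind these values.

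Of the 5 other SLC5 carriers tested, 2 were lower in arterioles than in whole kidney (Slc5a11 and Slc5a12) and 1 in glomeruli (Slc5a8), where 5.5% and 1.47% of all genes were lower. Slc5a12 (SMCT2, the low-affinity lactate carrier of the early proximal tubule) stood at 5.97, 2.25, 2.14 and 1.96 CPM in arterioles, 53.2, 141, 34.3 and 131 in glomeruli and 42.9, 59.8, 58.2 and 54.2 in whole kidney. Venules had 135, 228, 53 and 158 and peritubular capillaries 250, 173, 118 and 77.3. All arterioles lay below all other libraries, with -4.13 (SE 0.80, FDR 0.000537) against whole kidney and -4.87 (SE 0.95, FDR 0.00158) against glomeruli, the second lost when only the 8 libraries compared were fitted (FDR 0.0603). Slc5a8 (SMCT1, the high-affinity lactate carrier of later segments) had its lowest mean in glomeruli instead, at 5.91, 14.7, 29.8 and 9.82, against 224, 129, 185 and 182 in whole kidney and 55.2, 2.74, 48.7 and 169 in arterioles. Its glomerular log2 fold change was -3.58 (SE 0.88, FDR 0.0139), a call lost without glomerular library 93 or 100, or whole kidney library 93 (FDR up to 0.0699).

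Slc5a11 (SMIT2, an inositol carrier) had 11 counts in arterioles against 1894 in whole kidney, where it stood at 48.8, 43.3, 42 and 39.96 CPM, a log2 fold change of -6.57 (SE 1.27, FDR 0.000511). It stood at 102, 2.43, 68.5 and 147 in venules and 74.6, 44, 190 and 173 in peritubular capillaries, so 1 venule library lay far below the rest. Slc5a3 (SMIT1, another inositol carrier, named after its values were seen) was at 79.8 to 124 CPM in whole kidney, 0.639 to 56 in arterioles, 17.2 to 46.6 in glomeruli and 7.17 to 53 in venules. No library of those 3 compartments reached whole kidney, yet none of the differences passed the test, that of arterioles being -1.73 (SE 1.04, FDR 0.242).

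Of the 12 facilitative sugar carriers, 10 were tested, and 1 of them, Slc2a2, was lower in arterioles than in whole kidney, where 5.5% of all genes were lower. Slc2a2 (GLUT2, the basolateral exit for glucose in the proximal tubule) stood at 2.56, 2.9, 27 and 2.5 CPM in arterioles, 120, 117, 118 and 121 in whole kidney and 111, 379, 166 and 370 in peritubular capillaries. Glomeruli had 48.3, 47.4, 19.9 and 16 and venules 88.8, 57.9, 84.3 and 45.7. It was lower in arterioles than in whole kidney with a log2 fold change of -3.76 (SE 0.83, FDR 0.00218) and was a marker of peritubular capillaries with 3.24 (SE 0.65, FDR 0.000911), and both calls held without any 1 library. Slc2a10 (GLUT10) was called between arterioles and peritubular capillaries, with 10.16 (SE 2.87, FDR 0.0169). Its arteriole values were 0, 358, 20.6 and 0 CPM, and peritubular capillaries held 2 counts in all. The groups overlapped at 0, and the call was lost without arteriole library 96, or peritubular capillary library 100 (FDR up to 0.17).

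Slc2a1 (GLUT1, the glucose carrier of endothelium and many other cells) and Slc2a5 (GLUT5, a fructose carrier) were not called and are named after their values were seen. Slc2a1 stood at 78, 113, 25.1 and 44.8 CPM in arterioles and 25.1, 31.6, 26.2 and 24.7 in whole kidney, which overlapped, a log2 fold change of 1.28 (SE 1.32, FDR 0.524). Slc2a5 stood at 1.07, 46, 1.12 and 0.892 in arterioles, all below the 73.1, 63, 75 and 53.6 of whole kidney, with -2.43 (SE 1.13, FDR 0.126).

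Slc38a2 (SNAT2, a neutral amino acid carrier found in many cells) ran opposite to the tubular carriers. It stood at 809, 536, 308 and 274 CPM in arterioles, 63.1, 69.9, 72.6 and 72 in whole kidney and 31.6, 66.8, 51.1 and 3.13 in peritubular capillaries. Glomeruli had 131, 222, 118 and 235 and venules 130, 161, 123 and 95. The arteriole libraries lay above all others, and glomeruli and venules lay above whole kidney in every library. In arterioles it had 2.79 (SE 0.63, FDR 0.00276) against whole kidney, 3.66 (SE 0.72, FDR 0.000538) against peritubular capillaries and 2.34 (SE 0.48, FDR 0.0008) as a marker, calls that held without any 1 library. In glomeruli it had 1.35 (SE 0.60, FDR 0.251) and in venules 0.88 (SE 0.59, FDR 0.843) against whole kidney, neither past the threshold. Glomeruli were higher than peritubular capillaries by 2.21 (SE 0.67, FDR 0.0494), a call lost without glomerular library 93, 96, 98 or 100, or peritubular capillary library 93, 98 or 100 (FDR up to 0.135) and with only the 8 libraries compared (FDR 0.0662).

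**Figure D5:**
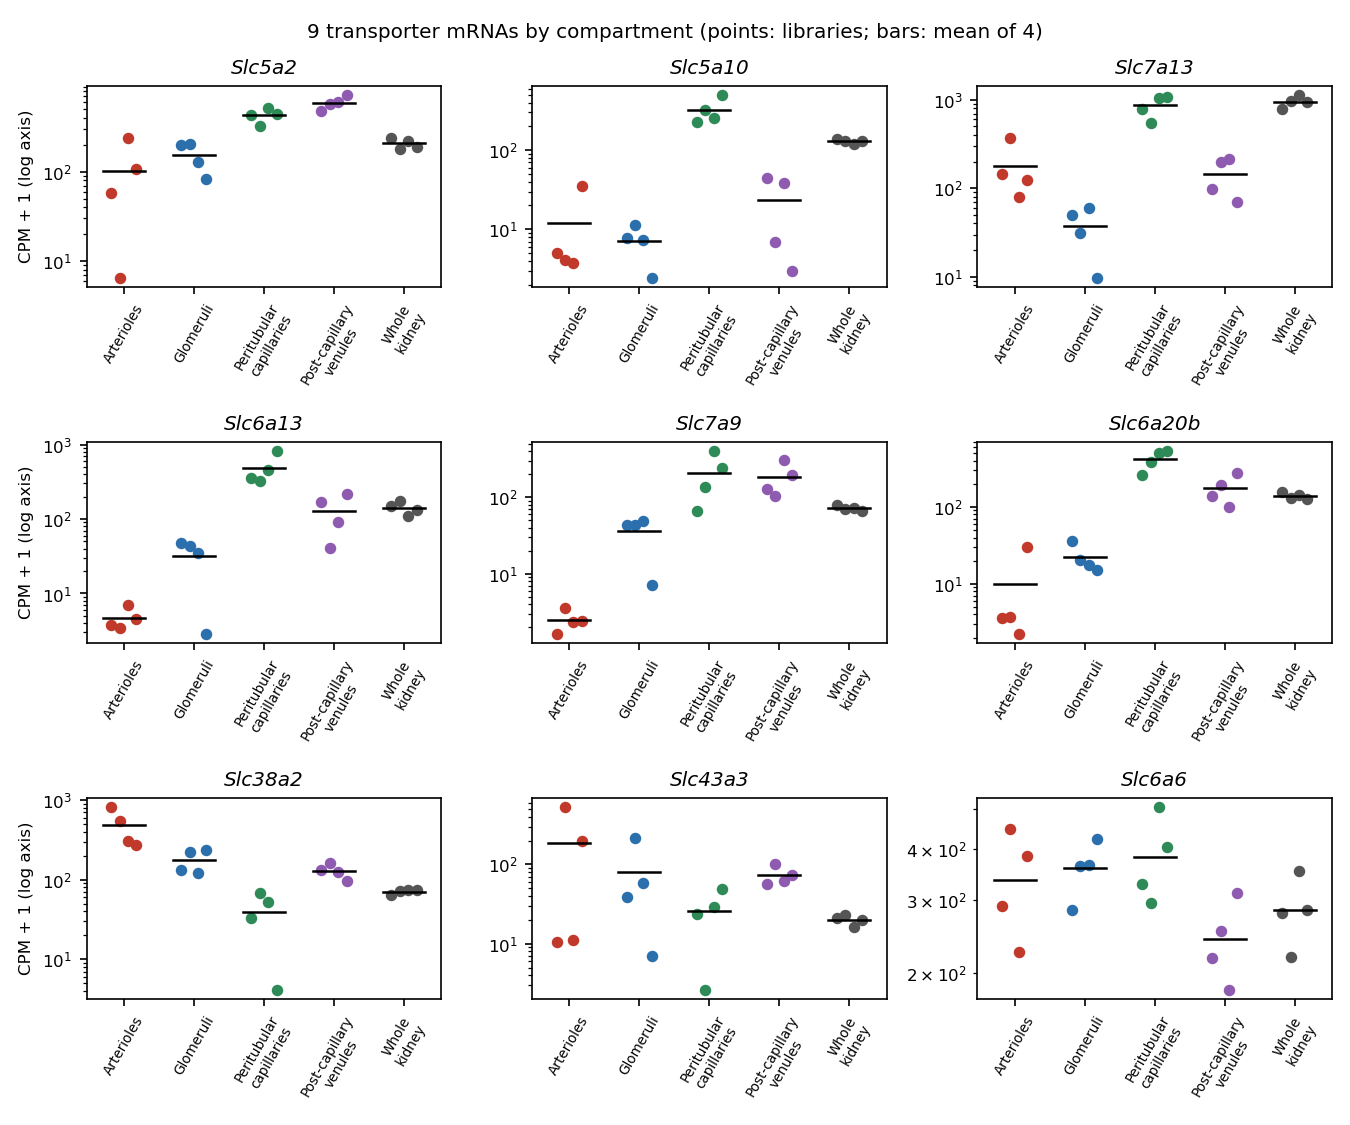
CPM plus 1 on a log axis of 9 transporter mRNAs in each compartment, with a point for each library and a bar at the mean of 4. Slc38a2 was highest in the arteriole libraries (274 to 809 CPM) and Slc6a13 in the peritubular capillary libraries (326 to 814 CPM).

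Slc43a3 (a purine nucleobase carrier) was the other member called higher in arterioles. Its arteriole values were 9.59, 526, 10.2 and 196 CPM against 20.05, 22, 15.4 and 18.7 in whole kidney, so 2 arteriole libraries lay below whole kidney and 2 far above. The log2 fold change was 3.28 (SE 1.08, FDR 0.0424), and the call was lost without arteriole library 96 or 100, or whole kidney library 93, 96, 98 or 100 (FDR up to 0.209) and with only the 8 libraries compared (FDR 0.0646). In venules its values of 55, 100, 61.5 and 73.3 all lay above whole kidney, with 1.93 (SE 1.02, FDR 0.604). Slc38a7 (SNAT7, a glutamine exporter of lysosomes) had 5 counts in arterioles and 2386 in peritubular capillaries, at 6.21, 0.443, 227 and 75.5 CPM. Its difference of -8.57 (SE 2.34, FDR 0.0133) was lost without peritubular capillary library 98 (FDR up to 0.0742). Slc6a15 (B0AT2, a carrier of branched-chain amino acids and proline) had 1 count in arterioles and 548 in whole kidney, at 20.4, 7.95, 10.1 and 12.4 CPM. Its difference of -8.04 (SE 2.54, FDR 0.036) was lost without arteriole library 93, 96 or 100, or whole kidney library 93, 96, 98 or 100 (FDR up to 0.084).

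Slc6a6, Slc38a10 and Slc6a8 were among the members named for their level alone. Slc6a6 (TauT, the taurine carrier) stood at 289, 445, 224 and 382 CPM in arterioles, 284, 362, 364 and 421 in glomeruli and 327, 294, 503 and 402 in peritubular capillaries. Venules had 217, 252, 181 and 312 and whole kidney 279, 218, 353 and 284. All groups of Slc6a6 overlapped whole kidney, with log2 fold changes from -0.24 in venules to 0.43 in peritubular capillaries (SE 0.41). Slc38a10 was at 19.9 to 252 CPM in arterioles and 78.2 to 91.7 in whole kidney, with 0.41 (SE 0.69, FDR 0.712). Slc6a8 (the creatine carrier) was at 164, 382, 35.6 and 143 in arterioles, 140, 148, 72.6 and 243 in venules and 67.6, 42.2, 47.6 and 50.7 in whole kidney, with 1.80 (SE 0.70, FDR 0.0761) and 1.54 (SE 0.69, FDR 0.451). The venule libraries of Slc6a8 lay above all whole kidney libraries, and the arterioles overlapped them. A difference that misses the threshold at these standard errors does not show equal levels.

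In all, 36 tested members were called in no comparison. Over these 36 the log2 fold change against whole kidney ran from -7.16 to 3.74 in arterioles, -5.24 to 2.28 in glomeruli, -6.99 to 2.25 in peritubular capillaries and -6.99 to 3.19 in venules, and the lowest FDR was 0.0635, 0.261, 0.27 and 0.293 in that order.

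Because the tubular carriers moved with the proximal tubule markers, their counts were also set against the summed counts of the 12 markers, as a description without a test. In bulk samples, fewer cells of a type and less RNA per cell cannot be told apart. Per 1000 marker counts, the luminal amino acid carriers had 35.1 ± 11.8 (SD, n = 4) in arterioles, 41.5 ± 4.79 in glomeruli, 30.7 ± 3.4 in peritubular capillaries, 40.7 ± 8.47 in venules and 49.7 ± 2.64 in whole kidney, a narrower range than in CPM. In the same order, the basolateral amino acid carriers had 32.5 ± 12.4, 56.1 ± 20.2, 12.6 ± 3.17, 29.7 ± 10.2 and 15.4 ± 3.15. Their mean was thus lowest in peritubular capillaries, where it was highest in CPM. Slc3a2, the heavy chain of several exchangers, was the largest part of this sum in every arteriole and glomerular library. It had 1196 to 2361 counts in arterioles, where no other carrier of the group passed 757. In glomeruli it had 844 to 2922 counts, where no other passed 972. The sum therefore does not stand for each carrier of the group. The sodium-coupled sugar carriers had 10.1 ± 9.97, 26.5 ± 9.39, 9.02 ± 1.31, 24.6 ± 4.38 and 10.3 ± 0.7. Slc6a13 had 0.336 ± 0.18 per 1000 in arterioles and between 3.65 ± 0.791 and 5.12 ± 1.08 in the other groups. Slc7a9 had 0.134 ± 0.0793 in arterioles, 1.83 ± 0.149 in whole kidney and 6.76 ± 3.91 in venules. Slc5a2 had 22.6 ± 8.77 in glomeruli and 21.7 ± 4.46 in venules while peritubular capillaries had 4.82 ± 1.21 and whole kidney 5.43 ± 0.651, so the mean of glomeruli lay above that of whole kidney here and below it in CPM. Slc7a13 had 24.8 ± 3.42 in whole kidney, 9.42 ± 1.9 in peritubular capillaries, 5.3 ± 3.09 in glomeruli and 5.36 ± 3.01 in venules.

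Over the 16 microdissected libraries, the named members most alike on the log2(CPM + 1) scale were Slc1a1 with Slc43a2 (Pearson r = 0.917), Slc1a1 with Slc6a20b (0.915), Slc6a13 with Slc7a9 (0.909) and Slc2a2 with Slc6a13 (0.906). The most unlike pair among them was Slc38a2 and Slc6a13 (r = -0.844). The libraries come from 4 compartments that differ in tubule content, so these values are a description.

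Of 19 genes that work with these carriers, 7 were lower in arterioles than in whole kidney (among them Cltrn, Slc16a10, Atp1b1, Fxyd2, Hnf4a and Khk) and 4 in glomeruli (among them Cltrn, Atp1b1 and Fxyd2), where 5.5% and 1.47% of all genes were lower, and none was called in peritubular capillaries or venules. Not all ran one way between compartments. Against peritubular capillaries, 2 were higher in arterioles and 10 lower, where 6.22% and 4.96% of all genes were. Against venules, 1 was higher in arterioles and 6 lower, where 2.5% and 1.86% of all genes were. Atp1b1, a subunit of the sodium pump that drives sodium-coupled uptake, stood at 846 ± 278 CPM in arterioles, 583 ± 93.4 in glomeruli, 3415 ± 205 in peritubular capillaries, 1918 ± 296 in venules and 2121 ± 223 in whole kidney (SD, n = 4). Hnf4a, a transcription factor of the proximal tubule, stood at 38.68 ± 34.85 in arterioles and 271 ± 15.4 in whole kidney.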

How the data were processed

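RNA was sequenced with QuantSeq 3′ mRNA libraries of 20 samples. The authors deposited a table of whole-number counts per gene, not normalized; 148 of its 168 sample columns, which match none of these samples, and 3 lines that describe the columns and hold no counts were not used. The submitters' processing notes name FastQC 0.11.8, MultiQC 1.7, STAR 2.7, SAMtools 1.9, HTSeq 0.13 and featureCounts, and the builds GRCm38.p6 and GRCm39; the counting's strand setting was not given in the sources used here. Counts were TMM-scaled and tested with edgeR 4.0.16 (limma 3.58.1, R 4.3.3) by the quasi-likelihood F test with Benjamini-Hochberg adjustment over all genes that passed filterByExpr, in 1 fit of 20 libraries against whole kidney and 1 fit of 16 between compartments. The code was checked on simulated data for arterioles against whole kidney, with the same spread for all genes and groups. That check does not cover the unequal spread of these libraries. Alternatives were DESeq2 1.42.0, its size factors, no filter, only the 8 libraries compared, the replicate number as a block, each library left out and a marker minimum of 1 CPM. Totals of 4639090 to 12283098 counts set the precision; intervals and floors cover counting error only. Tables and figures used Python 3.11.15, pandas 2.3.3 and matplotlib 3.10.9. Gene positions came from GENCODE. Named with values were members called in any comparison and the 6 with the highest mean CPM in each group. The members and lists were chosen with earlier results of these data known. Some genes that were counted are not reported here by name.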

Additional observations from a re-analysis of the deposited data

Results flagged for a closer look

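In 19 of 195 groups of 4 libraries, 1 library stood apart from the other 3 on the log2(CPM + 1) scale. Its gap to its nearest neighbour, divided by the range, exceeded the 95% critical value of the Dixon test. Chance flags about 1 in 20 groups of normally distributed values. Groups with values at 0 are not of that kind, so the 19 flags are not set against this rate. Among the arteriole libraries, Slc1a1 stood at 298 CPM in library 100 and at 1.28 to 3.38 in the others, Slc2a2 stood at 27 CPM in library 98 and at 2.5 to 2.9 in the others, Slc3a2 stood at 134 CPM in library 98 and at 363 to 380 in the others, Slc5a10 stood at 34.6 CPM in library 100 and at 2.7 to 4.05 in the others, Slc5a12 stood at 5.97 CPM in library 93 and at 1.96 to 2.25 in the others, Slc6a15 stood at 0.112 CPM in library 98 and at 0 in each of the others, Slc6a20a stood at 0.161 CPM in library 96 and at 0 in each of the others and opposite-strand genes (summed) stood at 18.8 CPM in library 96 and at 0 to 0.337 in the others. Among the peritubular capillary libraries, Slc2a10 stood at 0.249 CPM in library 93 and at 0 in each of the others and Slc43a2 stood at 429 CPM in library 100 and at 120 to 132 in the others. Among the venule libraries, Slc2a10 stood at 24.6 CPM in library 98 and at 0 to 0.448 in the others, Slc38a7 stood at 22 CPM in library 98 and at 0 to 0.365 in the others, Slc5a1 stood at 87.5 CPM in library 100 and at 25 to 27.8 in the others, Slc5a8 stood at 3.35 CPM in library 100 and at 73.5 to 89 in the others and glutamate and neutral amino acid carriers (summed) stood at 8.4 CPM in library 93 and at 98.9 to 153 in the others. Among the glomerular libraries, Slc3a2 stood at 93.1 CPM in library 100 and at 228 to 250 in the others, Slc5a11 stood at 0.994 CPM in library 96 and at 20.8 to 34.3 in the others, Slc6a13 stood at 1.88 CPM in library 100 and at 33.8 to 46.6 in the others and Slc7a9 stood at 6.07 CPM in library 100 and at 42 to 48.5 in the others. Where 3 libraries were at 0, any other value was flagged. This holds for Slc6a15 and Slc6a20a in arterioles, with 1 count each, and for Slc2a10 in peritubular capillaries, with 2 counts. All arteriole counts of the opposite-strand genes came from Slc7a6os. The cause of these gaps was not tested.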

How the results depend on the processing

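Each count of members was recomputed under the alternatives, and no named call reversed its direction. With DESeq2 in place of edgeR, members higher in arterioles than in whole kidney went from 2 to 6, lower in glomeruli from 6 to 10 and lower in venules from 1 to 2, while members called went to 10 between arterioles and glomeruli, 25 between arterioles and peritubular capillaries, 13 between arterioles and venules, 13 between glomeruli and peritubular capillaries, 5 between glomeruli and venules and 2 between peritubular capillaries and venules, and markers to 2 of arterioles and 4 of venules. With DESeq2's size factors 4 members were higher in arterioles and 0 were called between peritubular capillaries and venules. Without the filter 2 were called between glomeruli and venules and 5 were markers of venules. With only the 8 libraries compared, members higher than in whole kidney numbered 6 for venules, 5 for peritubular capillaries, 1 for glomeruli and 1 for arterioles, and members lower numbered 17 for glomeruli, 4 for venules and 1 for peritubular capillaries; 0 were called between arterioles and glomeruli, 5 between arterioles and venules, 13 between glomeruli and peritubular capillaries, 6 between glomeruli and venules and 4 between peritubular capillaries and venules. Leaving out 1 library gave, against whole kidney, 1 to 4 higher and 10 to 14 lower in arterioles, 2 to 4 lower in glomeruli, 1 to 1 lower in venules and 0 to 0 for the other counts; between compartments it gave 3 to 9 (arterioles and glomeruli), 12 to 18 (arterioles and peritubular capillaries), 7 to 10 (arterioles and venules), 5 to 7 (glomeruli and peritubular capillaries), 0 to 0 (glomeruli and venules) and 0 to 0 (peritubular capillaries and venules); and it gave 1 to 1 markers of arterioles, 0 to 1 of glomeruli, 10 to 14 of peritubular capillaries and 0 to 3 of venules. With the replicate number as a block, 1 member was higher in arterioles than in whole kidney, 1 was called between glomeruli and venules and 2 were markers of venules. Members lower in arterioles than in whole kidney went from 13 to 16 with DESeq2, 17 with the block and 19 with only the 8 libraries compared. Between arterioles and peritubular capillaries, fitting only the 8 libraries compared gave 11 members in place of 16. Some smaller changes are not listed. The block ended the calls of Slc43a3 between arterioles and whole kidney (FDR 0.107), Slc2a10 between arterioles and peritubular capillaries (FDR 0.1), Slc5a11 between arterioles and glomeruli (FDR 0.0522), Slc5a1 between arterioles and venules (FDR 0.0603) and Slc6a20a between glomeruli and peritubular capillaries (FDR 0.0836). The paper took all 4 compartments from each mouse, but no source used here says that a number marks a mouse. The libraries were not treated as paired in the main tests. To compare numbers, each group's mean was first subtracted from each gene's log2(CPM + 1). These deviations correlated at -0.0526 to 0.0714 in 40 same-numbered pairs of different groups, 0 of them over 0.1. Their median was 0.00835, against -0.00315 in 120 pairs of different numbers. By the same deviations, 12 of 20 libraries were nearest to one of their own number. That is a larger share than same-numbered pairs had among those compared (40, beside 120 of different numbers), and it was not tested. A pairing by mouse cannot be settled from these values. The cause of these changes was not tested, and the wide spread at few counts limits what these libraries can show.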
